A study of Mus musculus with 6 samples.

Results

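Of 30701 genes measured on 6 mouse T cell arrays, 44 were taken as cytosolic ribosomal protein genes, 25 of the large subunit and 19 of the small subunit. They were chosen by symbol alone: Rpl or Rps with a number and an optional a, x, l or y, or Rpsa, Rplp0, Rplp1 or Rplp2, on rows that name a single gene. Genes of S6 kinases and symbols ending in -ps were left out. RefSeq lists 90 symbols of this form. Another 39 of them stand only on rows shared with other genes, and 7 were not analysed here. Of the 44 genes, 40 are protein coding in RefSeq, and Rpl6l, Rps3a2, Rps3a3 and Rps4l are annotated as pseudogenes. Rps4l entered through a row that lists it with its synonym.

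The cells were naive CD4 T cells sorted as CD25-negative, CD62L-positive and CD44-negative, then stimulated through CD3 and CD28 for 3 days in IMDM with 10% FBS. All cultures received 20 ng/ml each of the cytokines IL-6 and IL-23, TGF-beta at 1.25 ng/ml, and blocking antibodies to IFN-gamma, IL-4 and IL-12 at 10 ug/ml, which push cells toward TH17, the IL-17-secreting helper type. The control group of 3 arrays had glutamine and the other 3 had none. The comparison asks how the absence of this amino acid changes the transcripts of such cells. Each array is labelled as a biological replicate, but nothing in the labels ties the cultures to different animals, and the p-values therefore measure only how these arrays vary, which may be technical. Levels are log2 values from RMA, which corrects background, normalizes between arrays and condenses each row's probes into 1 value. Changes are differences of group means, positive where the level was higher without glutamine. In such bulk RNA, fewer cells of a type and less RNA per cell cannot be told apart.

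Each ribosome joins a small subunit, which reads the mRNA, to a large subunit, which makes the peptide bond, and each subunit is built from ribosomal RNA and many small proteins made in near-equal numbers. Activated T cells grow before they divide and make many ribosomes. Vertebrate ribosomal protein mRNAs begin with a C followed by a stretch of pyrimidines (C or T), called the 5' terminal oligopyrimidine or TOP motif, through which mTORC1, a kinase complex that senses amino acids, controls their translation. A change in translation need not appear in the mRNA levels that arrays measure.

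The bases at the start of transcription are shown for 9 members that differ in response, since the TOP stretch lies there. Each window holds the 10 bases before the RefSeq start and the first 20 bases of the transcript, 5' to 3' on the gene's strand in GRCm38.p6. Capitals mark the longest run of C or T that touches the stretch from 2 bases before to 3 bases after the start.
Rps4x: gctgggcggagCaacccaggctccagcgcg
Rpl37a: ctcgccggTCTaaaaccgcgcatgcgcatt
Rpl22l1: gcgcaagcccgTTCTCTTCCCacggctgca
Rps10: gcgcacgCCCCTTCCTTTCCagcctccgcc
Rps18: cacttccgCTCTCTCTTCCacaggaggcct
Rpl38: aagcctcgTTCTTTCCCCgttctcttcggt
Rps9: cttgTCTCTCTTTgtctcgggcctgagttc
Rpl4: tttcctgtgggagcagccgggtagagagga
Rpl7l1: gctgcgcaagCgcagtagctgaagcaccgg
They lie at chrX:102189372-102189401 (Rps4x, minus strand), chr1:72711250-72711279 (Rpl37a, plus), chr3:28805498-28805527 (Rpl22l1, plus), chr17:27635225-27635254 (Rps10, minus), chr17:33955646-33955675 (Rps18, minus), chr11:114668570-114668599 (Rpl38, plus), chr7:3704031-3704060 (Rps9, plus), chr9:64173377-64173406 (Rpl4, plus) and chr17:46782637-46782666 (Rpl7l1, minus). A RefSeq start for 35 of the 40 protein coding members was matched by symbol, and where a gene has several starts the longest run was counted. The run was at least 5 bases long in 15 of these 35 genes (42.9%), against 25.3% of 27025 genes with a start. It reached 5 bases in 7 of 17 members that rose and in 8 of 17 that did not pass the threshold. Rps10 and Rps18, with runs of 13 and 11, rose, whereas Rps9 and Rpl38, with runs of 9 and 10, did not pass. The letters CCGGAAG, searched on both strands over 300 bases around the start, were found in 16 of the 35 members (45.7%) and in 9.93% of all genes. These are descriptions of letters and not of bound factors. RefSeq starts were not checked against measured starts, so a short run does not show that a gene lacks a TOP stretch.

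Ribosomal protein genes were modestly higher without glutamine. As deposited, 21 of 44 (47.7%) rose and 1 fell at an adjusted p under 0.05, against 9.30% of all genes that rose, 13.0% that fell and 22.3% in either direction. Among protein coding genes above the median level, 10.5% rose and 32.8% fell. The median change of the 44 was 0.35 log2, against 0.060 over all genes, and 40 of the 44 changes were above 0, against 60.7% of all genes. All 21 risers had groups that did not overlap, on the same values that gave the calls. In all, 32 members had every array without glutamine above every array with it, against 25.0% of all genes, and 1 had the reverse, against 18.8%. Groups were apart in the upward direction for 17 members after quantile normalization (10.6% of all genes) and for 18 on the centred scale (8.46%), and in the downward direction for 3 (27.9%) and 4 (33.9%). Changes ran from -0.66 for Rpl7l1 to 1.08 for Rps4x.

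The count depended on the scaling and on single arrays, while the direction of the median did not. Quantile normalization left 14 risers and 1 faller, where 4.74% of all genes rose and 17.1% fell. Centring each array on its median left 10 risers and 1 faller, where 3.96% of all genes rose and 20.0% fell. All 14 and all 10 were among the 21. Leaving out with-glutamine replicate 2 gave 10 risers, without-glutamine replicate 1 gave 12, and without-glutamine replicate 2 gave 12. Over all 30701 genes, 1437, 1874 and 1395 rose in these fits, against 2856 with every array kept, so calls were lost among all genes too. The median change stayed between 0.30 and 0.41 with any 1 array left out. The genes that rose under all 3 scalings were 9: Rps4x, Rps10, Rps15, Rps18 and Rps19 of the small subunit, and Rpl37a, Rpl22l1, Rpl31 and Rpl6l of the large subunit.

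**Figure D1:**
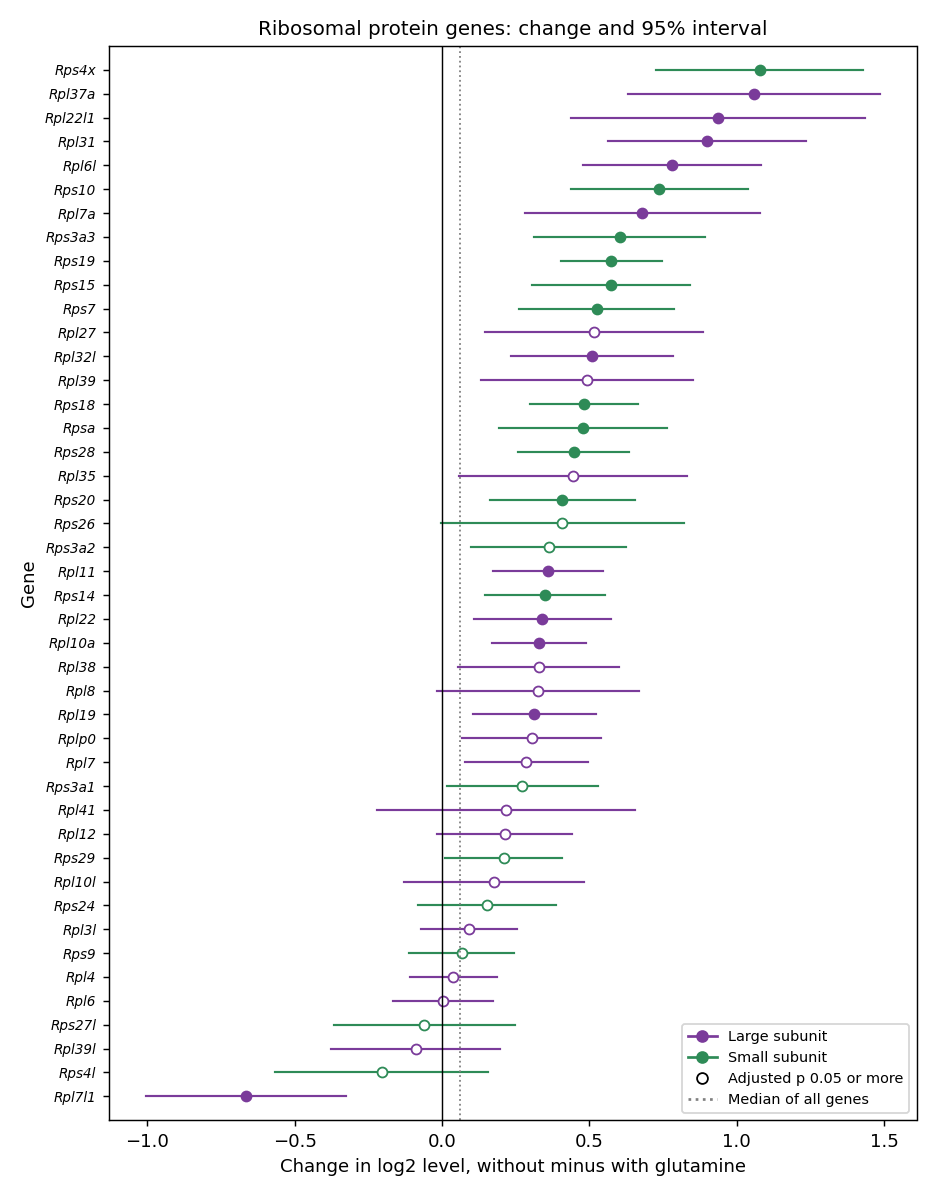
Change in log2 level (horizontal axis, without minus with glutamine) of the 44 ribosomal protein genes, 1 per line, with 95% intervals from limma; filled points passed an adjusted p of 0.05, violet is the large and green the small subunit, and the dotted line is the median of all genes. 40 of 44 points lie to the right of 0, and Rpl7l1 stands alone at -0.66.

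In the small subunit 11 of 19 genes rose and 0 fell, with a median change of 0.41. Quantile normalization left 8 risers (median 0.13) and centring 6 (median 0.25). The changes below 0 were those of Rps27l (-0.060) and Rps4l (-0.20), which did not pass the threshold.

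Rps4x, the X-linked gene of protein eS4, lay at 13.84, 13.83 and 13.35 log2 on the 3 arrays with glutamine and at 14.88, 14.67 and 14.70 without it. The arrays without glutamine were all higher, by more than the spread within either group, and the change was 1.08 (SE 0.15, adjusted p = 0.00386). Rps10, which encodes a protein at the small subunit head, read 10.85, 10.62 and 10.41 with glutamine and 11.49, 11.32 and 11.28 without. It rose by 0.74 (SE 0.13, adjusted p = 0.00857), again with no overlap. Rps19, whose human counterpart is the gene most often mutated in Diamond-Blackfan anaemia, read 8.49, 8.43 and 8.45 against 9.05, 8.93 and 9.11. Its arrays with glutamine agreed closely (SD 0.028), and it rose by 0.57 (SE 0.072, adjusted p = 0.00285). Rps18, often used as a reference transcript in quantitative PCR, read 9.35, 9.43 and 9.40 against 10.00, 9.82 and 9.81 and rose by 0.48 (SE 0.077, adjusted p = 0.00677). Rps28 rose by 0.45, from 7.81 ± 0.028 to 8.26 ± 0.11 (SD, n = 3). Rps4x, Rps10, Rps19, Rps18 and Rps28 passed the threshold with any 1 array left out, though Rps28 missed it after centring (adjusted p = 0.0546).

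The other 6 small subunit risers lost their call when some arrays were left out. Rps15 rose by 0.57, from 13.22 ± 0.20 to 13.79 ± 0.073, and its call was lost without without-glutamine replicate 3. Rps3a3, a pseudogene of Rps3a, rose by 0.60, and its adjusted p was 0.0562 without with-glutamine replicate 2. The protein coding Rps3a1 differed by 0.27 (adjusted p = 0.118) and the pseudogene Rps3a2 by 0.36 (0.0592), and neither passed. After quantile normalization Rps3a1 and Rps3a2 differed by -0.15 and -0.020. Rps7, one of the proteins that bind MDM2, rose by 0.52, and its call was lost on leaving out with-glutamine replicate 2 or, from the other group, replicate 1 or 2 (adjusted p 0.0505 to 0.0646). Rps20 rose by 0.41, and its call was lost on leaving out with-glutamine replicate 2 or 3 or, from the other group, replicate 1 or 2 (0.0649 to 0.104). Rpsa, known also as the laminin receptor precursor, rose by 0.48 from 15.27 ± 0.22 to 15.75 ± 0.080, and its call held only without with-glutamine replicate 1 (0.0504 to 0.0924 in the other leave-out fits). Rps14, a protein of the small subunit platform, rose by 0.35 from 8.34 ± 0.064 to 8.69 ± 0.12, and its call was lost on leaving out with-glutamine replicate 1 or 2 or, from the other group, replicate 1 or 3 (0.0686 to 0.0982). The scaling also bore on these calls. On the quantile scale the changes were 0.19 for Rps3a3 (adjusted p = 0.250), 0.10 for Rps7 (0.394) and 0.13 for Rpsa (0.412), and none of these passed. On the centred scale the calls of Rps7 (0.0630), Rpsa (0.118), Rps20 (0.145) and Rps14 (0.187) were lost. On the deposited scale each of the 6 risers had arrays without glutamine that all lay above those with it. The same values gave the calls, so this adds no support to them.

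The large subunit moved the same way with a smaller share of calls. Of 25 genes, 10 rose and 1 fell, with a median change of 0.33. Quantile normalization left 6 risers (median 0.075) and centring 4 (median 0.17), with the same 1 faller. The difference between the subunits was not tested.

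Rpl37a, a zinc-binding protein gene, read 13.40, 13.14 and 12.72 with glutamine and 14.31, 14.15 and 13.98 without it. It rose by 1.06 (SE 0.18, adjusted p = 0.00825) with no overlap, although its arrays with glutamine were spread over 0.34 (SD). Rpl31 read 7.69, 7.79 and 7.54 against 8.53, 8.34 and 8.85 and rose by 0.90 (SE 0.14, adjusted p = 0.00626); its row carries another chromosome in its identifier than the gene. Rpl6l, a pseudogene of Rpl6, rose by 0.78 from 12.56 ± 0.24 to 13.34 ± 0.051. Rpl37a, Rpl31 and Rpl6l passed with any 1 array left out.

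Other risers of the large subunit were less stable. Rpl11, which with Rpl5 and 5S RNA can bind MDM2 and so links ribosome assembly to p53, read 7.92, 7.91 and 7.97 against 8.41, 8.26 and 8.20. The groups were apart and it rose by 0.36 (SE 0.078, adjusted p = 0.0196), a call lost on leaving out with-glutamine replicate 1 or 2 or, from the other group, replicate 2 (0.0567 to 0.0674) and after centring (0.131). Rpl10a rose by 0.33 from 13.66 ± 0.042 to 13.99 ± 0.054, with a call lost without with-glutamine replicate 2 (0.0586), after quantile normalization (0.106) and after centring (0.134). Rpl7a rose by 0.68, with a call lost without with-glutamine replicate 2 or any array without glutamine (0.0693 to 0.0853). Rpl32l rose by 0.51, with a call lost in the same 4 fits (0.0545 to 0.0788). For Rpl32l the quantile scale gave 0.075 (adjusted p = 0.592) and the centred scale lost the call (0.0734), as it did for Rpl7a (0.0714). Rpl19 rose by 0.31 (adjusted p = 0.0441), and its call was lost with any array left out (0.0528 to 0.122). The change was 0.013 after quantile normalization (adjusted p = 0.926) and 0.16 after centring (0.274).

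**Figure D2:**
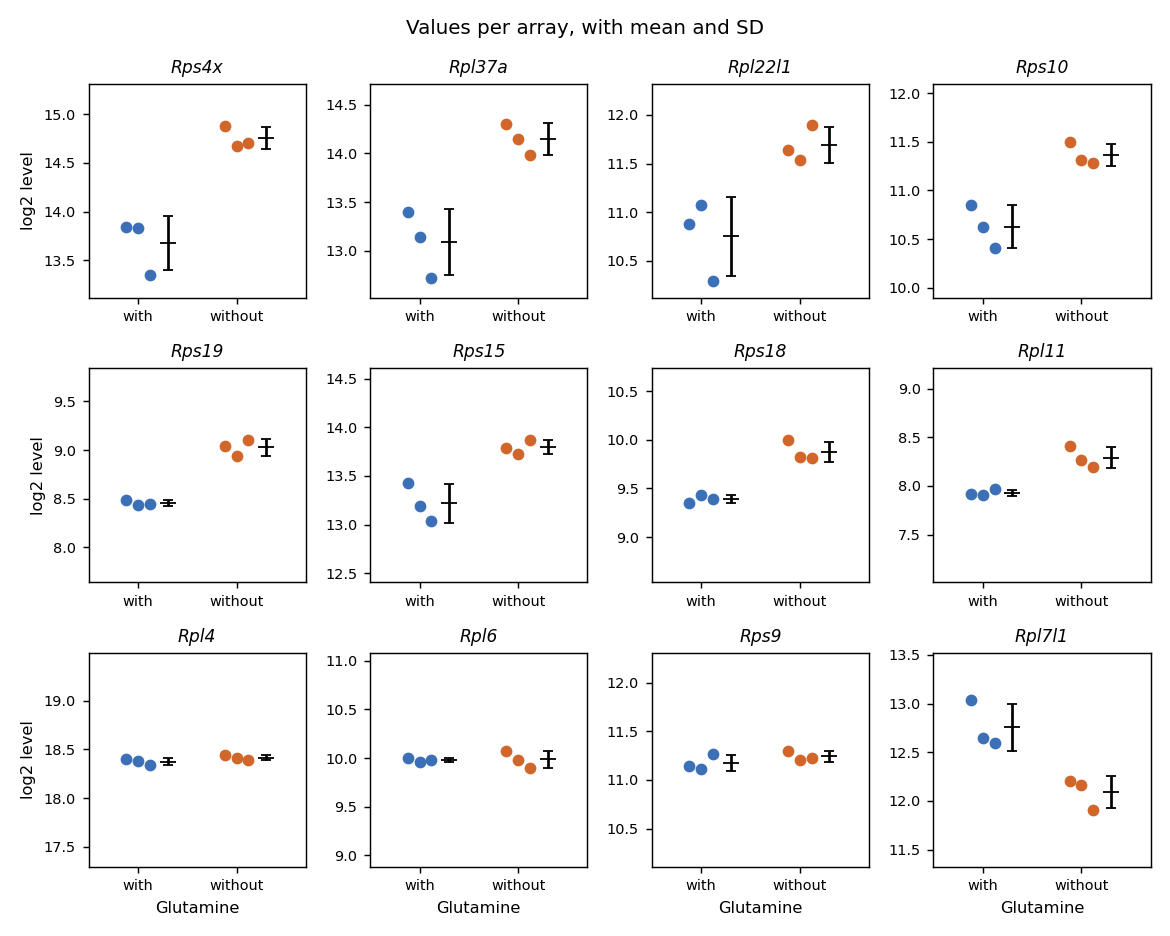
Log2 level (vertical axis, of equal span in every panel, placed by gene) on each of the 3 arrays with (blue) and 3 without glutamine (orange), for 12 ribosomal protein genes; the bar beside the points is mean ± SD. The arrays without glutamine lie above those with it in the first 8 panels, overlap with them for Rpl4, Rpl6 and Rps9, and lie below them for Rpl7l1.

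Several core members did not pass the threshold. Rpl4, a large subunit protein that lines the peptide exit tunnel, read 18.40, 18.39 and 18.34 with glutamine and 18.44, 18.41 and 18.39 without, a change of 0.038 with a 95% interval of -0.11 to 0.19. These values are above 16, the highest log2 value that 16 bits can hold. Other genes above 16 were called as risers on the deposited scale, such as Rps7 (16.66 to 17.19) and the elongation factor gene Eef2 (17.84 to 18.24). Neither call held after quantile normalization. Whether a rise is measurable on the Rpl4 row was not tested. Rpl6 differed by 0.0035 (interval -0.17 to 0.17) and Rps9 by 0.067 (interval -0.11 to 0.24). A rise as large as that of Rps10 lies outside both of these intervals. The Rpl6 row stood at 9.98 with glutamine, below the 12.56 of its pseudogene Rpl6l, which rose by 0.78. Signal may be shared between these rows, which was not tested, so the change of Rpl6 is uncertain. With glutamine, rows of some risers stood lower still, such as Rpl31 (7.67), Rps28 (7.81), Rpl11 (7.93) and Rps19 (8.46). Those of others, such as Rps4x (13.68), stood higher. Shared signal was not tested for risers either. After centring the changes of Rpl4, Rpl6 and Rps9 were -0.12, -0.15 and -0.089. Rplp0, the base of the ribosomal stalk that recruits translation factors and a common reference transcript, read 15.36, 15.27 and 15.04 against 15.61, 15.48 and 15.49. Its groups did not overlap and differed by 0.30 (interval 0.067 to 0.54, adjusted p = 0.0727), but after quantile normalization the difference was -0.028. Rpl38, which is known for its role in the translation of Hox mRNAs, differed by 0.33 (interval 0.056 to 0.60, adjusted p = 0.0867).

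Paralogs of ribosomal proteins did not move as a set. Rpl22l1, the paralog of Rpl22 that can take its place in the ribosome, read 10.88, 11.08 and 10.30 with glutamine and 11.64, 11.54 and 11.90 without it. All arrays without glutamine were higher, and it rose by 0.94 (SE 0.21, adjusted p = 0.0215), a call lost with any array without glutamine left out (0.0539 to 0.0713). Rpl22, whose loss in mice blocks development of alpha-beta T cells, read 8.78, 8.81 and 8.70 against 9.26, 9.12 and 8.93. It rose by 0.34 (adjusted p = 0.0495), a call kept only without without-glutamine replicate 3 (0.102 to 0.133 in the other leave-out fits) and lost after quantile normalization (0.0781) and centring (0.257). The level of Rpl22l1 minus that of Rpl22 on the same array rose by 0.60 (SE 0.28) and did not overlap between the groups.

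Rpl7l1, related to a yeast nucleolar assembly factor of the large subunit, was the member that fell. It read 13.03, 12.64 and 12.59 with glutamine and 12.21, 12.16 and 11.91 without, with no overlap. It fell by 0.66 (SE 0.14, adjusted p = 0.0190), a call lost without without-glutamine replicate 2 (0.0560) or 3 (0.0596). After quantile normalization it fell by 0.74 and after centring by 0.82. Rpl7, a structural protein of the mature large subunit, lay at 10.40, 10.42 and 10.20 against 10.71, 10.59 and 10.57, a difference of 0.29 that missed the threshold (adjusted p = 0.0597). The level of Rpl7l1 minus that of Rpl7 fell by 0.95 (SE 0.14).

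Among the other pairs, Rpl39, whose protein lies in the exit tunnel, read 11.10, 10.78 and 10.59 against 11.35, 11.47 and 11.13, a difference of 0.49 (adjusted p = 0.0601), while its testis paralog Rpl39l changed by -0.089 (interval -0.38 to 0.20) at levels of 4.69 to 5.10. Rps4l stood between 5.08 and 5.58 and changed by -0.20, and its difference from Rps4x fell by 1.28 (SE 0.034). That SE is small because the Rps4l and Rps4x rows varied alike within groups, with differences of -8.29 to -8.26 with glutamine. Rps4x itself rose by 1.08 (SE 0.15), and signal shared between the Rps4l and Rps4x rows was not tested. Rpl6l minus Rpl6 rose by 0.78 (SE 0.17), though these rows may share signal. Rps27l, a known p53 target, lay at 12.28 ± 0.25 with glutamine and 12.22 ± 0.038 without (interval of the change -0.37 to 0.25). The muscle and heart paralog Rpl3l (3.35 to 3.55) and the testis paralog Rpl10l (4.07 to 4.63) changed by 0.093 (-0.063 after centring) and 0.18, and neither passed the threshold. Differences of change were compared in 5 pairs with a two-sided exact permutation test over arrays, and each gave p = 0.1 (0.1 after Benjamini-Hochberg), the smallest that 3 against 3 arrays allow.

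Some members have several rows, and these did not always move alike. The array's row identifiers carry a chromosome, which equals the gene's RefSeq chromosome in 99.8% of 30622 genes, but the rows used for 6 members (Rpl7a, Rpl12, Rpl27, Rpl31, Rpl35 and Rpl41) carry another one. Rpl7a rose by 0.68 on the row of chromosome 9, while the row of its own chromosome 2 differed by 0.31 (adjusted p = 0.165 over all rows naming 1 gene). Rpl27 differed by 0.52 on the row of chromosome 18 and by 0.30 on that of its own chromosome 11. Rpl35 differed by 0.44 on the row of chromosome 1 and by 0.39 on that of its own chromosome 2, and Rpl41 by 0.22 and -0.0049. Ribosomal protein genes have many near-identical processed copies, so signal on any of these rows may be shared, and the change of such a gene is uncertain. With own-chromosome rows of protein coding members only, an alternative chosen after seeing the data, 17 genes rose and 1 fell, with a median change of 0.33.

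The rows that name a ribosomal protein symbol together with other genes were fitted separately, and their changes were mostly above 0. Of these 52 rows, 20 rose, 0 fell and 51 had changes above 0, with a median of 0.33, in a fit over all 65956 rows in which 10.3% rose and 6.33% fell. The median over all rows was 0.105. Quantile normalization left 14 risers among the 52, where 5.94% of all rows rose, and centring 9, where 5.21% rose. Changes above 0 then numbered 39 and 42. No gene is named from these rows.

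The 6 arrays differed within each group. Relative to each gene's mean over the arrays, the median member stood at -0.053, -0.18 and -0.31 on with-glutamine replicates 1, 2 and 3 and at 0.27, 0.17 and 0.096 on without-glutamine replicates 1, 2 and 3. With-glutamine replicate 3 was the lowest of the 6 arrays for 30 of 44 members, and without-glutamine replicate 1 was the highest for 30. Large and small subunit genes followed the same order on the arrays with glutamine. They stood at -0.018, -0.12 and -0.31 for the large and -0.068, -0.22 and -0.30 for the small subunit. Without glutamine the orders differed, at 0.24, 0.17 and 0.086 for the large and 0.28, 0.15 and 0.17 for the small subunit. Without with-glutamine replicate 3, 17 members rose, 1 fell and the median change was 0.31. In that fit 2490 of all 30701 genes rose and 4012 fell.

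**Figure D3:**
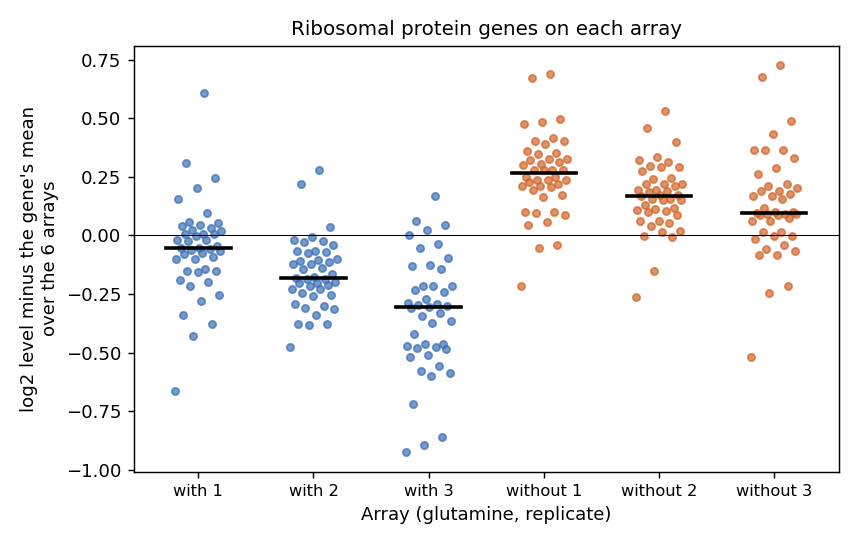
Log2 level of each of the 44 ribosomal protein genes minus that gene's mean over the 6 arrays (vertical axis), by array (horizontal axis); blue points are arrays with and orange points arrays without glutamine, and the black bar is the median. The medians run from -0.31 on with-glutamine replicate 3 to 0.27 on without-glutamine replicate 1.

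The median over all rows was between 4.18 and 4.21 log2 on the arrays with glutamine and between 4.33 and 4.38 on those without, and centring lowered every change by the same amount, whereas quantile normalization moved genes unequally. Of the 12 members with a mean level above 16 over the 6 arrays, 4 rose on the deposited scale, 0 on the quantile scale and 1 on the centred scale, and their median change was 0.34, -0.0037 and 0.18. Of the other 32 members, 17, 14 and 9 rose under the 3 scalings and 1 fell, with medians of 0.35, 0.27 and 0.20. The median over all genes was 0.060, -0.048 and -0.095, below that of the members each time. After quantile normalization 13 members had changes below 0, and after centring 9.

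**Figure D4:**
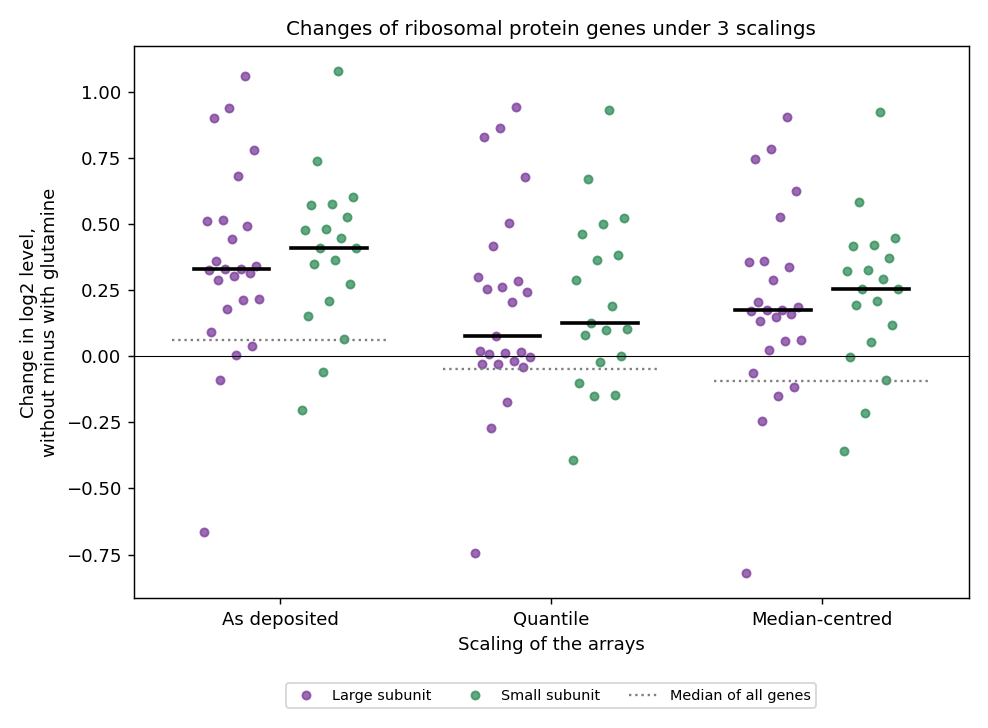
Change in log2 level (vertical axis, without minus with glutamine) of 25 large subunit (violet) and 19 small subunit genes (green) under 3 scalings (deposited, quantile, each array centred on its median); black bars are medians of the genes shown and dotted lines medians of all genes. The bars lie above the dotted lines under each scaling, and at 0.075 and 0.13 they are lowest after quantile normalization.

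Other genes of translation were split between rises and falls. Of 44 translation factors, 37 were measured, and 5 rose (13.5%) and 8 fell (21.6%), with a median change of -0.12. Among protein coding genes above the median level 10.5% rose and 32.8% fell, with a median of -0.15, so these counts, like those of the next lists, are not results about the lists. Quantile normalization gave 2 rises and 13 falls, and centring gave 3 and 15. The falls numbered 5 when with-glutamine replicate 1 or 2 was left out. They numbered 4 when without-glutamine replicate 2 was left out and 5 when without-glutamine replicate 3 was. Among 7 elongation factors 3 rose and 0 fell as deposited, but 0 rose and 2 fell after quantile normalization. Eef1b2 (0.52), Eef1g (0.47) and Eef2 (0.41) were the 3, named after their values were seen. Among 27 initiation factors 2 rose and 7 fell. Eif1ax, a factor of start site scanning, fell by 0.85 from 11.14 ± 0.020 to 10.29 ± 0.25 and kept its call with any array left out. The eIF3 subunit genes Eif3f (0.65) and Eif3k (0.62) rose; Eif3k lost its call after centring (0.0676) and without with-glutamine replicate 2 or any array without glutamine (0.0636 to 0.0761).

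Of 11 listed genes with TOP mRNAs or products bound to ribosomes, 8 were measured, 1 rose and 1 fell (12.5% each). Naca, a subunit of the complex that meets nascent chains at the exit tunnel, rose by 0.30, but changed by -0.022 after quantile normalization and lost its call with any array but with-glutamine replicate 1 left out (0.0585 to 0.0792). Vim, the intermediate filament gene whose mRNA has a TOP start, fell by 1.61 from 17.26 ± 0.22. Of 15 regulators of mTORC1 and TOP mRNAs, 13 were measured, 2 rose (15.4%) and 3 fell (23.1%), or 0 and 3 after centring. Rptor, the mTORC1 scaffold, rose by 0.62, a call lost on leaving out with-glutamine replicate 1 or 2 or, from the other group, replicate 1 or 3 (0.0571 to 0.0719) and after centring (0.0509). Eef2k, the kinase that slows elongation, fell by 0.59, a call lost without without-glutamine replicate 1 or 3 (0.0538 and 0.0595), and Larp4, a poly(A)-binding factor, fell by 0.56. Larp1, which binds the TOP start itself, differed by 0.19 (adjusted p = 0.301; -0.016 after quantile normalization). Of 8 chaperones and assembly partners of ribosomal proteins, 0 rose and 2 fell (25%), against the same 32.8%: Tsr2, the chaperone of Rps26, by 0.56 and Heatr3, which carries Rpl5 and Rpl11, by 0.42. Both of those calls were lost in at least 4 of the 6 fits with an array left out, with adjusted p up to 0.103 for Tsr2 and 0.118 for Heatr3.

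The cell type label was checked on markers. The 7 measured CD4 T cell markers had a mean level of 14.07 to 14.22 log2 per array with glutamine and 14.27 to 14.44 without, and 2 of them rose (1 rose and 2 fell after quantile normalization). The 4 measured TH17 markers all fell, with log2 changes of -6.81 for Il17a, -4.83 for Il23r, -3.50 for Il17f and -1.81 for Ccr6, larger than any change of a ribosomal protein gene. All 4 measured B cell markers, 5 of 6 myeloid and 2 of 3 NK markers had means below 5 log2 over the 6 arrays. The B cell markers had a mean level of 3.91 to 3.95 log2 per array with glutamine and 3.92 to 4.06 without. Of 2 CD8 markers, Cd8a was below 5 log2 and Cd8b1 fell by 0.71. Among myeloid genes Lyz2 fell by 1.66 and Cd68 rose by 1.58. Lyz2 is counted below 5 log2 by its mean over all arrays, but it stood at 5.80 ± 0.33 with glutamine and 4.14 ± 0.14 without. The part of these genes in the ribosomal protein changes was not tested.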

How the data were processed

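RNA of 6 arrays was measured, 3 per group. The deposited values are log2 levels per row. The submitters' processing notes name RMA and, as software, Transcriptome Analysis Console 4.0; its options, annotation and build are not stated there. Array medians differ and values pass 16, so an unnamed step may have shifted the scale, and changes are given in log2 and not as folds. Of 65956 rows, 31258 named 1 gene, 1492 several and 33206 none here. Symbols came from the platform annotation, updated through RefSeq (GRCm38.p6). Each symbol was represented by its row of highest mean level, with no filter on low levels, so every member was tested.

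All 30701 genes were fitted with limma 3.58.1 (lmFit, eBayes, two-sided, R 4.3.3), with Benjamini-Hochberg adjustment over all genes and a threshold of 0.05. The script was tested on simulated data in which 200 of 30701 genes were changed, fewer than were called here. It recovered 2% of changes of 0.35 log2, 18% of 0.5, 68% of 1 and 94% of 2, with 7 false calls. Changes near the median of the members were thus rarely recovered in that setting. The named genes are the 8 largest rises and falls of members past the threshold, a fixed set of paralogs and well-known members, and up to 3 called members per list. Others are named to complete a count of risers, or after their values were seen (Rps3a1, Rps3a2, Rps7, Rps9, Rps15, Rps18, Rps20, Rps28, Rpl4, Rpl6, Rpl10a, Rpl19, Rpl32l, Larp1, Eef1b2, Eef1g, Eef2, marker genes and multi-row members). Members and lists were chosen with earlier results of these data known. Sequences are from RefSeq. Alternatives were 2 scalings, other row and gene choices, variance models, a stricter threshold, a replicate block and leaving out arrays. The number of arrays limits precision. Figures used matplotlib 3.10.9.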

Additional observations from a re-analysis of the deposited data

How the results depend on the processing

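The counts of ribosomal protein genes kept their direction under every alternative run. With the counts of translation factors and of all genes included, 50 recomputed counts and medians moved and 151 did not. A count was taken as moved if it changed by more than 1.5-fold or dropped to 0. By this rule 14 risers against 21 was not a move. A median was taken as moved if it shifted by at least the spread of the arrays within groups. After centring, 10 genes rose (4 large, 6 small subunit), with medians of 0.20, 0.17 and 0.25 for all, large and small subunit genes. After quantile normalization 6 large subunit genes rose, and the medians were 0.11, 0.075 and 0.13. With the unmoderated statistic 8 rose (4 large, 4 small), and at adjusted p under 0.01 also 8 (3 large, 5 small); neither called a fall (0). Translation factors rose and fell in 2 and 13 cases after quantile normalization, 3 and 15 after centring, 3 and 4 unmoderated, and 3 and 3 under 0.01. All genes called numbered 6845, against 3833 unmoderated and 2944 under 0.01.

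With any 1 array left out, 10 to 21 ribosomal protein genes rose and 0 to 1 fell, with 4 to 10 and 0 to 1 in the large and 6 to 11 in the small subunit; translation factors rose in 4 to 5 and fell in 4 to 10 cases, and 4061 to 6502 genes were called. Whether the replicate numbers pair the arrays is not known. Deviations of same-numbered arrays correlated at 0.066, -0.23 and 0.28 over genes, and those of differently numbered arrays at -0.33 to 0.30. With 3 arrays per group these values cannot settle it. With the replicate block 23 ribosomal protein genes rose, 19 of them among the 21, and 1 fell. Over the 44 members, 9 changes had another sign after quantile normalization and 5 after centring. Among the genes that the naming rule gives, 6 values changed sign: Rpl3l (-0.0017 after quantile normalization, -0.063 after centring), Rplp0 (-0.028) and Naca (-0.022) after quantile normalization, Rpl39l (-0.19 to 0.011 with 1 array left out) and Rps27l (-0.17 to 0.080); 99 calls were lost and 8 gained. The cause of these shifts was not tested, and all rest on 3 arrays per group.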

Other observations

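Rows named for ribosomal protein pseudogenes (-ps symbols) were not counted as members. Of 218 such genes, 138 rose (63.3%) and 0 fell as deposited, with a median change of 0.60. Over all genes 9.30% rose and 13.0% fell, with a median of 0.060. Quantile normalization left 62 risers (28.4%) and 1 faller (median 0.39), where 4.74% of all genes rose. Centring left 64 (29.4%) and 0 (median 0.45), where 3.96% of all genes rose. Many of these copies are near-identical to their parents, so rows of parents and copies may share signal, which was not tested.

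Genes of the mitochondrial ribosome, which translates the mitochondrial genome and has its own protein set, had a median change below 0. Of 75 such genes by symbol, 4 rose (5.33%) and 22 fell (29.3%), with a median change of -0.26, against 24 falls after quantile normalization and 34 after centring. The share that fell is near the 32.8% of protein coding genes above the median level, so it is not a result about these genes. The difference from the cytosolic set was not tested.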
